A study of Mus musculus with 12 samples.

Results

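C3H/10T1/2 cells carrying the BMP2ADV148b plasmid were compared with cells carrying the other hybrid plasmids of the same series, BMP2ADV20a and BMP2ADV590. Each hybrid plasmid was built to express bone morphogenetic protein 2 (BMP2) together with 1 miRNA, and its name gives the miRNA: miR-148b, miR-20a or miR-590. The libraries were chosen by their titles alone. They were 3 BMP2ADV148b libraries against 3 BMP2ADV20a and 3 BMP2ADV590 libraries, 9 of the 12 in the series, and the remaining 3 carry BMP2ADV, the plasmid without a named miRNA. In the comparison the mean of BMP2ADV20a and the mean of BMP2ADV590 weighed the same. C3H/10T1/2 is a mouse embryonic line with the shape of fibroblasts that can be driven towards cartilage, bone or fat, and the labels give its disease as sarcoma. All groups were transfected transiently without a virus, so all of them received BMP2 along with a miRNA, and RNA was taken 3 days later. Each was given 0.5 µg of DNA per square centimetre, with a medium change at 4 hours. Separate cultures behind the 3 libraries of each group are not named in the labels. P-values therefore measure the spread between these libraries, which may be technical. No untransfected cells were analysed here. What BMP2, transfection or the loss of cells does by itself is therefore not measured, and with bulk RNA a change per cell and a change in the number of cells of a type cannot be told apart.

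A miRNA guides Argonaute proteins to mRNAs whose 3′ UTR pairs with its seed, the bases near its 5′ end, and the paired mRNAs are usually destabilised or translated less. miR-148b belongs to the miR-148 family, whose members share a seed, and is known from human mesenchymal stem cells for favouring bone formation. BMP2 signals through receptor kinases and SMAD proteins and drives mesenchymal cells towards cartilage and bone. The results below turn mainly on interferon-stimulated genes: type I interferon activates transcription factors, IRF9 among them, that bind a response element in the promoters of antiviral genes, and sensors of foreign nucleic acid start the same programme.

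The mature sequences are shown because the seed decides which sites were searched in the 3′ UTRs. They are from RefSeq (GRCm38.p6), 5′ to 3′, with the seed (bases 2 to 8) in capitals. The table used holds no entry for miR-590, which is named only.
miR-148b-3p: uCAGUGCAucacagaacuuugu
miR-148a-3p: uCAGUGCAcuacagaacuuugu
miR-152-3p: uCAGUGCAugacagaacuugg
miR-148b-5p: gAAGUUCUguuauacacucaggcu
miR-20a-5p: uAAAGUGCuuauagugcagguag
The first 3 share 1 seed, and their site in a 3′ UTR reads TGCACTG. The seeds of miR-20a-5p and of the opposite arm, miR-148b-5p, differ from it. Mature miRNAs are not measured by these libraries, which start from polyadenylated RNA.

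Reads over the miR-148b hairpin marked the BMP2ADV148b libraries. Mir148b (ENSMUSG00000065560) lies on the plus strand of GRCm38 chromosome 15, 103285125 to 103285221, inside the annotated gene Copz1. Its counts were 211, 215 and 204 in BMP2ADV148b replicates 1, 2 and 3, against 0 in every BMP2ADV20a and BMP2ADV590 library. Against a limit of 3 counts over each group, its level was at least 280.1-fold higher than in BMP2ADV20a and at least 259.6-fold higher than in BMP2ADV590. Copz1, the host gene on the same strand, averaged 230 ± 2.77 CPM in BMP2ADV148b, 248 ± 15 CPM in BMP2ADV20a and 281 ± 36.3 CPM in BMP2ADV590 (normalised counts-per-million, SD, n = 3 each). Its log2 fold change was -0.20 (edgeR adjusted p = 0.265), so the hairpin counts did not come with a called change of the host. All 3 BMP2ADV148b libraries nevertheless lay below the other 6 for Copz1 (-0.29 against BMP2ADV590 alone, adjusted p = 0.076). The sources used here do not say how reads were divided between both genes. Mir20a had 0 counts in all 9 libraries, which for the BMP2ADV20a group is under a limit of 3 counts over its 3 libraries. Mir17hg, the host transcript of miR-20a, stood at 5.11 ± 0.325 CPM in BMP2ADV148b, 2.85 ± 0.408 CPM in BMP2ADV20a and 2.42 ± 0.932 CPM in BMP2ADV590 (log2 fold change 0.97, adjusted p = 0.1). All 3 BMP2ADV148b libraries lay above the other 6 for Mir17hg, the BMP2ADV20a libraries included. Eif4h, the host gene of miR-590, had a log2 fold change of 0.04 (adjusted p = 0.860).

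The BMP2ADV148b libraries held 9750598, 9299756 and 9236431 gene counts, all below the 10056741 to 14727288 of the other 6 (exact permutation test, two-sided, p = 0.0238 over 84 assignments, where the smallest possible is 0.0119, and 0.119 after adjustment over 5 library measures). With every library thinned to 9236431 counts, a check chosen after seeing the data, 218 genes were called against 223. Gm42418, annotated over rRNA sequence, made up 4.07% to 7.41% of gene counts in BMP2ADV148b and 4.99% to 8.99% in the others, and mitochondrial transcripts took 1.68% to 1.94% in BMP2ADV148b and 1.77% to 2.32% in the others. The Gm42418 share was 8.08% to 8.43% in BMP2ADV20a, above all 3 BMP2ADV148b libraries. In BMP2ADV590 it was 4.99% to 8.99%, which overlapped BMP2ADV148b. The mitochondrial range of BMP2ADV148b overlapped those of both other groups. All 10 mesenchymal line markers were detected, among them Col1a1 at 4654 ± 486 CPM in BMP2ADV148b, 5081 ± 626 CPM in BMP2ADV20a and 4353 ± 384 CPM in BMP2ADV590. Of 10 macrophage markers, 3 were at 0 in all 9 libraries (Adgre1, Tyrobp and C1qa). So were 2 of 10 endothelial markers (Cdh5 and Cldn5) and 4 of 12 muscle genes (Myod1, Myf5, Myh1 and Ckm). The same held for 4 of 11 epithelial markers (Epcam, Krt8, Cldn4 and Cldn7). The other members of these lists had reads, and 4, 2, 1 and 4 members, in that order, had enough to be tested. Summed over the list, the epithelial markers reached 232 to 391 CPM in the BMP2ADV148b libraries. Whether such cells were absent was not tested. The leading principal component held 21.2% of the variance. Along it the BMP2ADV148b libraries were spread from -30.4 to -2.64, the BMP2ADV20a libraries lay between -7.45 and 1.84 and the BMP2ADV590 libraries between 19.3 and 24.1. BMP2ADV148b replicate 3 stood nearest to BMP2ADV20a and replicate 1 farthest from both other groups.

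Of 13069 genes tested with edgeR's quasi-likelihood test, 223 differed between BMP2ADV148b and the mean of the other hybrids at a Benjamini-Hochberg adjusted p under 0.05, which is 1.71% of the genes. They were 138 higher (1.06%) and 85 lower (0.65%) in BMP2ADV148b, with median log2 fold changes of 0.61 and -0.45. In 117 of the 138 (0.895% of all genes) the 3 BMP2ADV148b libraries lay above all 6 others, and in 50 of the 85 (0.383%) below all 6. Of the 138 higher genes, 61 were also called higher against BMP2ADV20a alone, where 0.467% of all genes were called higher, and 128 against BMP2ADV590 alone (2.0%). Of the 85 lower genes, 5 were called lower against BMP2ADV20a alone (0.0536%) and 77 against BMP2ADV590 alone (2.3%). In all, 68 genes were called against BMP2ADV20a alone (0.52%) and 563 against BMP2ADV590 alone (4.31%). All 223 had the same sign against each plasmid. The pair comparisons share the BMP2ADV148b libraries with the average, so these counts are not independent of it. The number called depended on single libraries: it was 70 without BMP2ADV148b replicate 1 and 111 without replicate 2, and without replicate 1 the lower genes numbered 8.

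Interferon-stimulated genes were the list with the most higher members. Of 35 tested members of the interferon response list, 30 were higher and none lower, with a median log2 fold change of 0.58 against 0.00 for all 13069 genes. The median was 0.51 against BMP2ADV20a alone, with 16 called higher, and 0.74 against BMP2ADV590 alone, with 31 called higher. Among all genes 1.06% were called higher on average, 0.467% against BMP2ADV20a alone and 2.0% against BMP2ADV590 alone. In 26 members all 3 BMP2ADV148b libraries lay above all 6 others, as they did in 3.17% of all tested genes. The number called higher was 17 without BMP2ADV148b replicate 1 and 22 without replicate 2. Inflammatory chemokines and genes of MHC class I presentation were higher as well. Of 16 tested members of the chondrocyte list, 4 were lower, beside 0.65% of all tested genes.

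**Figure D1:**
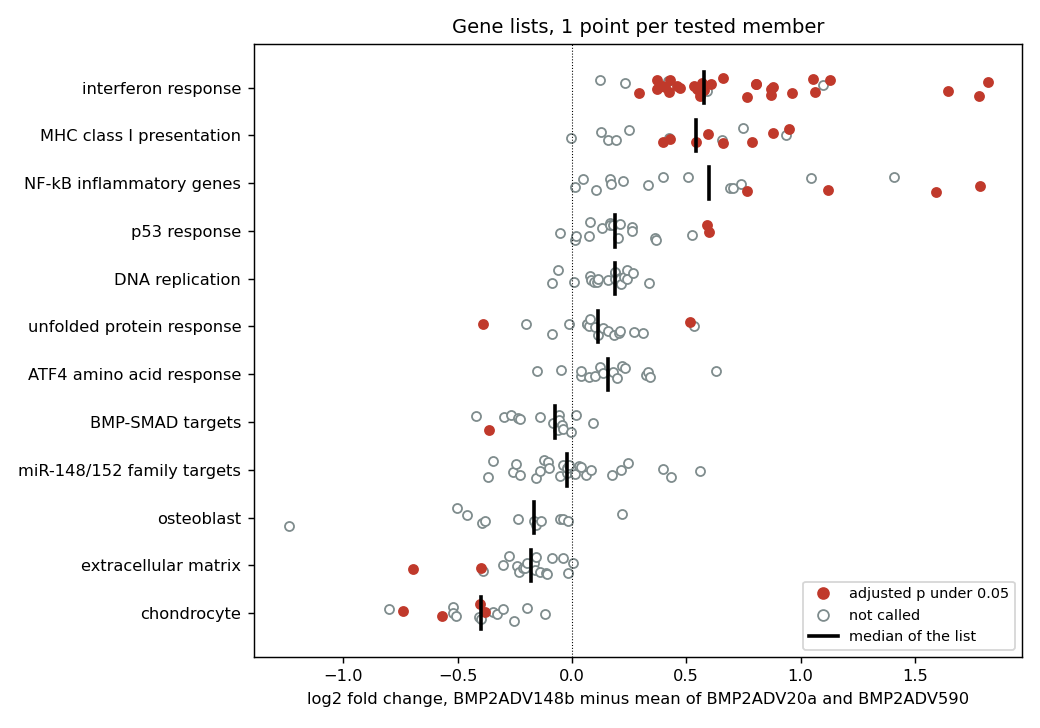
Log2 fold change of each tested member of 12 gene lists, BMP2ADV148b minus the mean of BMP2ADV20a and BMP2ADV590. Filled points have an edgeR adjusted p under 0.05 and bars mark the median of a list. Interferon members sit to the right around a median of 0.58 and chondrocyte members to the left around -0.40, while the medians of the miR-148 family targets and the BMP-SMAD targets lie at -0.02 and -0.07.

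Antiviral effectors were among the largest differences of the list. Rsad2 (ENSMUSG00000020641, chromosome 12, 26442746 to 26456452, minus strand), which encodes viperin, an enzyme that blocks viral replication, had 117, 97.6 and 66.1 CPM in the BMP2ADV148b libraries, against 28, 34.6 and 35.3 CPM in BMP2ADV20a and 22, 24.5 and 18.3 CPM in BMP2ADV590. Every BMP2ADV148b library lay above every other library, and the lowest of them was well clear of the highest of the others. The log2 fold change was 1.82 (SE 0.134, edgeR adjusted p = 1.08e-07), 1.52 against BMP2ADV20a and 2.11 against BMP2ADV590. Mx1 (ENSMUSG00000000386, chromosome 16), a GTPase that restricts viruses, had 62.3, 53.7 and 39.6 CPM in BMP2ADV148b, 17.0, 19.0 and 16.1 CPM in BMP2ADV20a and 12.4, 19.3 and 16.0 CPM in BMP2ADV590. The groups did not overlap, and the BMP2ADV20a and BMP2ADV590 libraries overlapped each other (log2 fold change 1.65, SE 0.139, adjusted p = 7.84e-07). Cmpk2, a nucleotide kinase gene next to Rsad2, averaged 23.2 ± 5.77 CPM in BMP2ADV148b, 11.4 ± 2.73 CPM in BMP2ADV20a and 10.8 ± 2.17 CPM in BMP2ADV590 (1.06, SE 0.175, adjusted p = 0.00144). This call was lost without BMP2ADV148b replicate 1 (adjusted p = 0.0554).

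The IFIT family, whose proteins bind foreign RNA, was measured at high levels. Ifit3b (ENSMUSG00000062488, chromosome 19, 34607970 to 34613401, plus strand) had 244, 203 and 241 CPM in BMP2ADV148b, against 130, 151.8 and 147.9 CPM in BMP2ADV20a and 131, 114 and 117 CPM in BMP2ADV590. Its log2 fold change was 0.80 (SE 0.0773, edgeR adjusted p = 4.77e-06), without overlap. Ifit3 averaged 1036 ± 109 CPM in BMP2ADV148b, 618 ± 97.9 CPM in BMP2ADV20a and 519 ± 83.5 CPM in BMP2ADV590 (0.87, adjusted p = 2.37e-05), and Ifit1 had a log2 fold change of 0.46 (adjusted p = 0.000729). Ifit3 and Ifit3b are close copies, and the split of reads between them is uncertain. Ifit2 missed the threshold, at 20.4 ± 3.78 CPM in BMP2ADV148b, 14.0 ± 5.09 CPM in BMP2ADV20a and 13.1 ± 3.26 CPM in BMP2ADV590 (0.59, adjusted p = 0.161). Isg15, which encodes a ubiquitin-like modifier, averaged 995 ± 94.8 CPM in BMP2ADV148b, 694 ± 66.4 CPM in BMP2ADV20a and 668 ± 74.9 CPM in BMP2ADV590 (0.55, adjusted p = 0.000397). Among the oligoadenylate synthetase genes and their relatives, Oasl1 (0.96), Oasl2 (0.66), Oas1a (0.81) and Oas2 (0.56) were higher, while Oas3 at 5.05 ± 2.07 CPM in BMP2ADV148b had 1.10 (adjusted p = 0.167). The calls of Oas1a and Oas2 were lost without BMP2ADV148b replicate 1 (adjusted p = 0.119 and 0.173), and that of Oas2 also without replicate 2 (0.0626).

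Most genes of sensors and signalling factors described here were called as well, Irf9 excepted. Zbp1, which encodes a nucleic acid sensor, averaged 25.2 ± 6.02 CPM in BMP2ADV148b, 15.1 ± 4.56 CPM in BMP2ADV20a and 9.77 ± 2.40 CPM in BMP2ADV590 (1.05, edgeR adjusted p = 0.0028). The cytoplasmic RNA sensor genes Ifih1 and Ddx58 had log2 fold changes of 0.58 and 0.37 (edgeR adjusted p = 0.0118 and 0.00598). Of the transcription factors, Irf7 had 0.56 (adjusted p = 0.00162) and Stat2 0.39 (adjusted p = 0.0116). Irf9, which encodes a DNA-binding partner of STAT2, was not called, at 170 ± 4.26 CPM in BMP2ADV148b, 150 ± 5.15 CPM in BMP2ADV20a and 163 ± 17.9 CPM in BMP2ADV590 (0.12, adjusted p = 0.545). Usp18, which encodes a brake on interferon receptor signalling, was higher by 0.54 (adjusted p = 0.000303). Without BMP2ADV148b replicate 1 the calls of Zbp1 (adjusted p = 0.0925), Stat2 (0.190), Ifih1 (0.134) and Ddx58 (0.0643) were lost, and without replicate 2 those of Stat2 (0.0791) and Ifih1 (0.116), whereas Irf7 and Usp18 passed under every left-out library. The remaining members without a call were Xaf1 (0.42, adjusted p = 0.207) and Rtp4 (0.23, adjusted p = 0.0630), and for Rtp4 the 3 BMP2ADV148b libraries still lay above all 6 others.

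Interferon-responsive chemokines rose with the effectors. Cxcl10 (ENSMUSG00000034855, chromosome 5, 92346638 to 92348889, minus strand), which encodes a chemokine that draws T cells, had 119, 79.4 and 60.1 CPM in BMP2ADV148b, against 25.8, 32.2 and 21.0 CPM in BMP2ADV20a and 24.6, 22.7 and 24.1 CPM in BMP2ADV590. The BMP2ADV148b libraries were far from the other 6, which all lay within a narrow range, and among themselves they differed more than the others did. The log2 fold change was 1.78 (SE 0.152, edgeR adjusted p = 7.84e-07), 1.71 against BMP2ADV20a and 1.86 against BMP2ADV590. Ccl5 averaged 72.4 ± 17.1 CPM in BMP2ADV148b, 45.0 ± 9.36 CPM in BMP2ADV20a and 24.4 ± 4.08 CPM in BMP2ADV590 (1.13, adjusted p = 6.14e-05). BMP2ADV148b overlapped BMP2ADV20a for Ccl5, where the adjusted p was 0.0711.

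**Figure D2:**
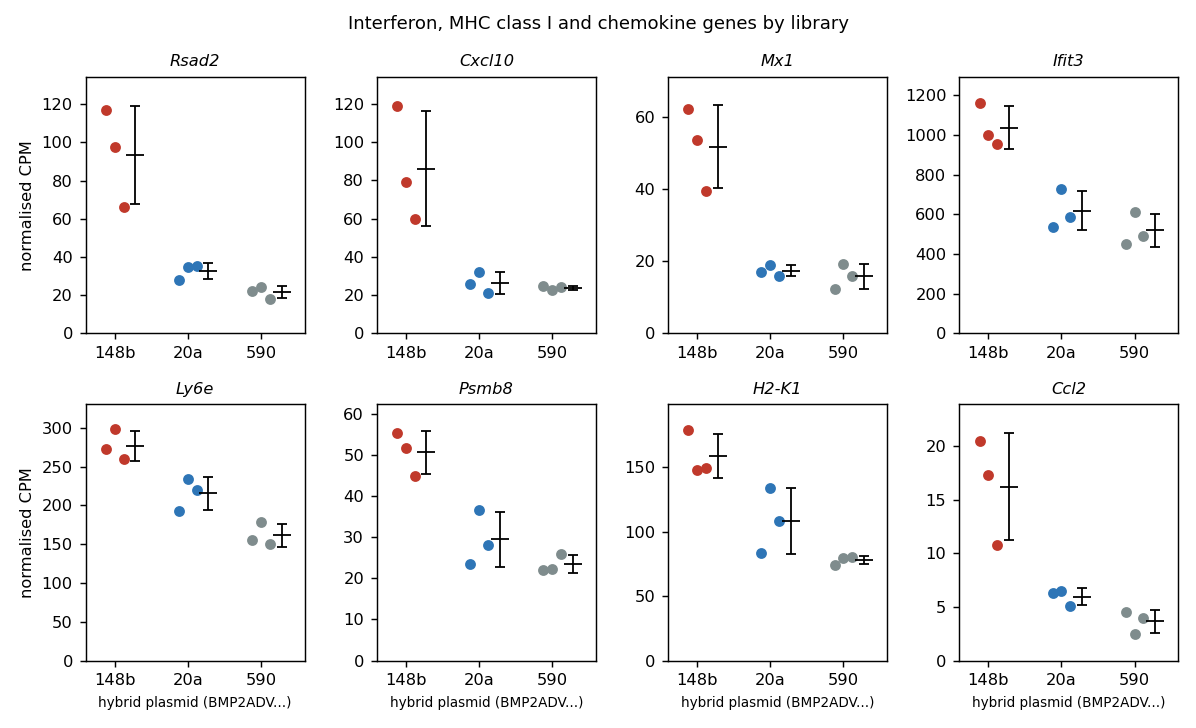
Normalised CPM of 8 genes in each library, for BMP2ADV148b (left), BMP2ADV20a and BMP2ADV590. Points are libraries and the cross with bars is the mean ± SD of 3. For Rsad2, Cxcl10, Mx1 and Ccl2 every BMP2ADV148b library lies above the other 6 libraries, and for Ly6e, an interferon-induced membrane protein gene, BMP2ADV148b averages 277 CPM, BMP2ADV20a 216 CPM and BMP2ADV590 162 CPM.

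Promoters of the higher genes are shown because many held the letters of the interferon-stimulated response element. The motif searched, on both strands, was GAAA followed after 2 bases of any kind by GAAA, from 250 bases before to 50 bases after the annotated start, in RefSeq promoters of GRCm38.p6. It was found in 14 of 24 matched interferon list members (58.3%) and in 36 of 104 matched higher genes (34.6%), against 3 of 63 matched lower genes (4.76%), 358 of 9485 matched tested genes (3.77%) and 1131 of all 32851 promoters (3.44%). The higher genes include the list members, so these shares are not separate. In the promoters below the motif, or its complement, is in capitals.
Rsad2, chr12:26456403-26456702, minus strand: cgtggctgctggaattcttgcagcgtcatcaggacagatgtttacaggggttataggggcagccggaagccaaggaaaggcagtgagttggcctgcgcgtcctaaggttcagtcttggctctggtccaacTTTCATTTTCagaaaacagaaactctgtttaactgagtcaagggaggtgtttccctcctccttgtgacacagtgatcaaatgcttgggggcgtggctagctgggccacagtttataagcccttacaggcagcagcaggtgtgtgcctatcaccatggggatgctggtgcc
Cxcl10, chr5:92348840-92349139, minus strand: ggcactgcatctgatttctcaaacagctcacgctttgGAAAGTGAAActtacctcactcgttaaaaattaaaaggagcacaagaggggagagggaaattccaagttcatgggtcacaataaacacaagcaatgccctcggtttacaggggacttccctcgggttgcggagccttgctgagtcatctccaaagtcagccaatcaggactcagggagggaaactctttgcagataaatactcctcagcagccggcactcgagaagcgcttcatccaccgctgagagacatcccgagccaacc
Ifit3b, chr19:34607707-34608006, plus strand: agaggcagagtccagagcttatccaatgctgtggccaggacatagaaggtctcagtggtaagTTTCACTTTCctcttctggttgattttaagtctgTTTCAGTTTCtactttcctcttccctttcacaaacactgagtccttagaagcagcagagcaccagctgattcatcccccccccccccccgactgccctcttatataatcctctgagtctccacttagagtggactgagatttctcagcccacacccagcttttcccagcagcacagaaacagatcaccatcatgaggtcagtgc
The motif starts 120 bases before the start of Rsad2 and 213 bases before that of Cxcl10, and Ifit3b holds 2 copies, the first 188 bases before its start. A match is a description of these letters and not a site of binding.

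Genes of 2 further interferon-induced families were also higher. These lists were drawn up after the values were seen and carry no weight as evidence. Of 14 tested interferon-inducible GTPase genes, 10 were higher and none lower (median log2 fold change 0.79), and of 7 tested p200 genes, whose proteins include DNA sensors, 6 were higher (median 0.65). Without BMP2ADV148b replicate 1 these counts were 5 and 2, and the p200 count was 3 without replicate 2 and 4 without BMP2ADV20a replicate 3. Ifi207, a p200 gene taken by the naming rule, had 14.5, 15.6 and 11.2 CPM in BMP2ADV148b, 6.83, 5.89 and 6.49 CPM in BMP2ADV20a and 4.49, 4.59 and 7.89 CPM in BMP2ADV590, without overlap (1.20, SE 0.194, edgeR adjusted p = 0.0012). Iigp1 averaged 349 ± 26.9 CPM in BMP2ADV148b, 199 ± 35.1 CPM in BMP2ADV20a and 189 ± 12.2 CPM in BMP2ADV590 (0.85, adjusted p = 1.01e-05). Other high-ranking genes were Phf11b (1.01, adjusted p = 4.71e-05), Trim30d (1.01, adjusted p = 0.00443), of the TRIM family, and Colec10 (1.14, adjusted p = 0.0066), which encodes a secreted lectin. The calls of Trim30d and Colec10 were lost without BMP2ADV148b replicate 1 (adjusted p = 0.0687 and 0.129). Reads of such gene families can be split between copies, so values of single members are uncertain, and Igtp and Irgm2, both among the 10, overlap on chromosome 11.

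MHC class I presentation was the second immune group. Of 17 tested members, 8 were higher and none lower, beside 1.06% of all genes higher, with a median log2 fold change of 0.54. Against BMP2ADV20a alone 4 were called, beside 0.467% of all genes, and against BMP2ADV590 alone 8, beside 2.0%. The inducible proteasome subunits, which shape peptides for presentation, were all called. Psmb8 (ENSMUSG00000024338, chromosome 17, 34197721 to 34201454) had 55.3, 51.6 and 44.8 CPM in BMP2ADV148b, 23.6, 36.6 and 28.1 CPM in BMP2ADV20a and 22, 22.3 and 25.9 CPM in BMP2ADV590, without overlap (0.95, SE 0.121, edgeR adjusted p = 0.000108). Psmb9 had 0.88 (adjusted p = 0.000191) and Psmb10 0.60 (adjusted p = 0.00045). H2-K1, a classical heavy chain gene, had 179, 147.7 and 150 CPM in BMP2ADV148b, against 83.1, 134 and 108 CPM in BMP2ADV20a and 74.1, 79.4 and 80.4 CPM in BMP2ADV590. BMP2ADV20a lay between both other groups, and the log2 fold change was 0.79 overall (SE 0.106, adjusted p = 0.000191), 0.55 against BMP2ADV20a (adjusted p = 0.0524) and 1.03 against BMP2ADV590 (adjusted p = 6.58e-05). The peptide transporter gene Tap1 averaged 80.7 ± 1.35 CPM in BMP2ADV148b, 53.8 ± 6.62 CPM in BMP2ADV20a and 56.8 ± 4.42 CPM in BMP2ADV590 (0.54, adjusted p = 0.00104). B2m, the light chain gene, was not called, at 2429 ± 40.2 CPM in BMP2ADV148b, 2188 ± 238 CPM in BMP2ADV20a and 2171 ± 68.0 CPM in BMP2ADV590 (0.16, adjusted p = 0.328).

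The NF-kB inflammatory list was shifted upward, and its called members were chemokine genes and Relb. All 18 tested members had a positive log2 fold change. In 7 of them all 3 BMP2ADV148b libraries lay above all 6 others, against 3.17% of all tested genes. Of 18 tested members, 4 were higher, beside 1.06% of all genes, and none lower (median log2 fold change 0.60, and 0.37 without BMP2ADV148b replicate 1). Against BMP2ADV20a alone 3 were higher, beside 0.467% of all genes, and against BMP2ADV590 alone 7, beside 2.0%. The monocyte chemokine gene Ccl2 (ENSMUSG00000035385, GRCm38 chromosome 11) had 20.5, 17.4 and 10.8 CPM in BMP2ADV148b, 6.34, 6.49 and 5.08 CPM in BMP2ADV20a and 4.56, 2.47 and 4.00 CPM in BMP2ADV590. The neighbouring gene Ccl7 had 19.4, 16.1 and 12.2 CPM in BMP2ADV148b, 5.51, 6.49 and 4.98 CPM in BMP2ADV20a and 5.20, 3.36 and 6.09 CPM in BMP2ADV590. For both chemokines all BMP2ADV148b libraries lay above the others, with replicate 1 the highest and replicate 3 the lowest. The log2 fold change was 1.78 for Ccl2 (SE 0.211, edgeR adjusted p = 4.78e-05) and 1.59 for Ccl7 (SE 0.196, adjusted p = 6.81e-05). Cxcl1, a chemokine gene for neutrophils, averaged 14.2 ± 1.74 CPM in BMP2ADV148b, 5.73 ± 0.476 CPM in BMP2ADV20a and 7.41 ± 1.54 CPM in BMP2ADV590 (1.12, adjusted p = 0.000731). Relb, an NF-kB subunit gene, had 0.77 (adjusted p = 0.0406), a call lost when any 1 of 6 libraries was left out, with adjusted p up to 0.391. The feedback inhibitor genes Nfkbia (0.17, adjusted p = 0.226) and Tnfaip3 (1.04, adjusted p = 0.109) were not called, nor was the cytokine gene Il6 at 1.71 ± 0.659 CPM in BMP2ADV148b, 0.374 ± 0.0957 CPM in BMP2ADV20a and 1.05 ± 1.05 CPM in BMP2ADV590 (adjusted p = 0.325).

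The libraries of BMP2ADV, which took no part in the tests, place these levels. On the scaling of all 12 libraries, Rsad2 averaged 53.02 ± 3.89 CPM in BMP2ADV, Cxcl10 49.6 ± 6.26 CPM and Mx1 35.0 ± 3.24 CPM, each between BMP2ADV148b and both other hybrids. Of the 30 called interferon genes, 29 had their highest mean in BMP2ADV148b, and in 25 the BMP2ADV mean lay between BMP2ADV148b and both other hybrids. The BMP2ADV mean was above BMP2ADV20a in 26 of the 30 and above BMP2ADV590 in all 30, and in 18 of the 30 every BMP2ADV148b library lay above every BMP2ADV library. Ccl5 kept this order at 56.4 ± 8.71 CPM in BMP2ADV. Of the chemokines of the NF-kB list, Ccl2 averaged 16.3 ± 4.97 CPM in BMP2ADV148b and 26.8 ± 1.46 CPM in BMP2ADV, Ccl7 15.9 ± 3.63 CPM in BMP2ADV148b and 16.6 ± 2.00 CPM in BMP2ADV, and Cxcl1 14.2 ± 1.74 CPM in BMP2ADV148b and 17.7 ± 3.95 CPM in BMP2ADV. Mdm2 averaged 333 ± 37.2 CPM in BMP2ADV148b and 326 ± 51.2 CPM in BMP2ADV on the same scaling. The next pairs give BMP2ADV148b first and BMP2ADV second. Relb (11.3 and 14.4 CPM) and Fosl1 (30.5 and 42.3 CPM) were higher in BMP2ADV. Mmp9 (1.87 and 1.41 CPM) and Ifi207 (13.8 and 13.1 CPM) were near it. So were the lower genes Col10a1 (206 and 192 CPM), Col2a1 (1179 and 1167 CPM) and Grem1 (41.7 and 38.6 CPM). Psmb8 (50.6 and 30.7 CPM), H2-K1 (159 and 96.5 CPM) and Pdia3 (513 and 629 CPM) were farther from it. These are means set side by side without a test.

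Few stress genes were called, although most members of the stress lists had a positive log2 fold change. Ddit3 (ENSMUSG00000025408, chromosome 10), which encodes CHOP, a transcription factor of the stress response of the endoplasmic reticulum, had 244, 224 and 209 CPM in BMP2ADV148b, 161, 158 and 167 CPM in BMP2ADV20a and 150, 168 and 143 CPM in BMP2ADV590. Pdia3 (ENSMUSG00000027248, chromosome 2), a disulfide isomerase gene of the same compartment whose protein also helps to load MHC class I, went the other way, with 518, 538 and 479 CPM in BMP2ADV148b, 703, 655 and 660 CPM in BMP2ADV20a and 641, 732 and 623 CPM in BMP2ADV590. Neither gene showed overlap between BMP2ADV148b and the other groups. The log2 fold change of Ddit3 was 0.52 (SE 0.0711, edgeR adjusted p = 0.000247) and that of Pdia3 -0.39 (SE 0.0689, adjusted p = 0.003), and both were called against each plasmid alone. They were the called genes among 19 tested members of the unfolded protein response, whose median was 0.11, with 15 members positive. The chaperone gene Hspa5 had 0.21 (adjusted p = 0.0955). None of 16 ATF4 targets was called (median 0.16), and 14 were positive. Against BMP2ADV590 alone 4 of the ATF4 targets were called higher, beside 2.0% of all genes, and against BMP2ADV20a alone none. Of 18 p53 response genes, Mdm2 (0.59, adjusted p = 8.64e-05), which encodes the ligase that degrades p53, and Trp53inp1 (0.60, adjusted p = 0.000278) were higher, the list median was 0.19, and Cdkn1a, the cell cycle inhibitor gene, had 0.13 (adjusted p = 0.413). Among the 18, 17 were positive, and in 4 all 3 BMP2ADV148b libraries lay above all 6 others, against 3.17% of all tested genes.

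Chondrocyte genes were lower mostly against BMP2ADV590. Of 16 tested members, 4 were lower and none higher (median log2 fold change -0.40), and 1 was lower without BMP2ADV148b replicate 1. Against BMP2ADV20a alone none was called and the median was -0.04, whereas against BMP2ADV590 alone 9 were lower and the median was -0.80. Among all genes 0.65% were called lower on average and 2.3% against BMP2ADV590 alone. Col10a1 (ENSMUSG00000039462, GRCm38 chromosome 10), whose collagen marks hypertrophic chondrocytes, had 174, 189 and 253 CPM in BMP2ADV148b, 188, 245 and 287 CPM in BMP2ADV20a and 499, 525 and 445 CPM in BMP2ADV590. BMP2ADV148b overlapped BMP2ADV20a, and BMP2ADV590 stood alone. The log2 fold change of Col10a1 was -0.74 on average (SE 0.118, edgeR adjusted p = 0.00107), -0.22 against BMP2ADV20a (adjusted p = 0.764) and -1.25 against BMP2ADV590 (adjusted p = 1.43e-05). Hapln1, the gene of the link protein of aggrecan, had 101 ± 18.5 CPM in BMP2ADV148b, 105 ± 18.3 CPM in BMP2ADV20a and 215 ± 10.4 CPM in BMP2ADV590 (-0.57, adjusted p = 0.00501). Col2a1, the main cartilage collagen gene, had 1176 ± 152.4 CPM in BMP2ADV148b, 1320 ± 63.1 CPM in BMP2ADV20a and 1773 ± 40.8 CPM in BMP2ADV590 (-0.38, adjusted p = 0.00644). In both genes BMP2ADV590 again stood above the other groups, which overlapped. Col11a1 differed from these in that its BMP2ADV148b libraries, at 626, 632 and 662 CPM, lay below all 6 others, at 788, 762 and 814 CPM in BMP2ADV20a and 900, 1039 and 774 CPM in BMP2ADV590 (-0.40, SE 0.0769, adjusted p = 0.00619). Without BMP2ADV148b replicate 1 only Col10a1 passed, with adjusted p of 0.103 for Hapln1, 0.1099 for Col2a1 and 0.0796 for Col11a1, and without replicate 2 Hapln1 (0.0565) and Col11a1 (0.0653) also missed it. With the 6 libraries as 1 group, the adjusted p was 0.203 for Col10a1, 0.354 for Hapln1 and 0.188 for Col2a1. Sox9, the master factor of cartilage, was not called, at 2065 ± 345 CPM in BMP2ADV148b, 2080 ± 102 CPM in BMP2ADV20a and 2918 ± 207 CPM in BMP2ADV590 (-0.26, adjusted p = 0.166). The keratin gene Krt15, from the epithelial markers, had 281 ± 80.8 CPM in BMP2ADV148b, 317 ± 33.2 CPM in BMP2ADV20a and 555 ± 59.8 CPM in BMP2ADV590 (-0.58, adjusted p = 0.0132, and 0.196 without BMP2ADV148b replicate 1 or 0.158 without replicate 2), while Epcam and Krt8 were at 0 in every library.

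**Figure D3:**
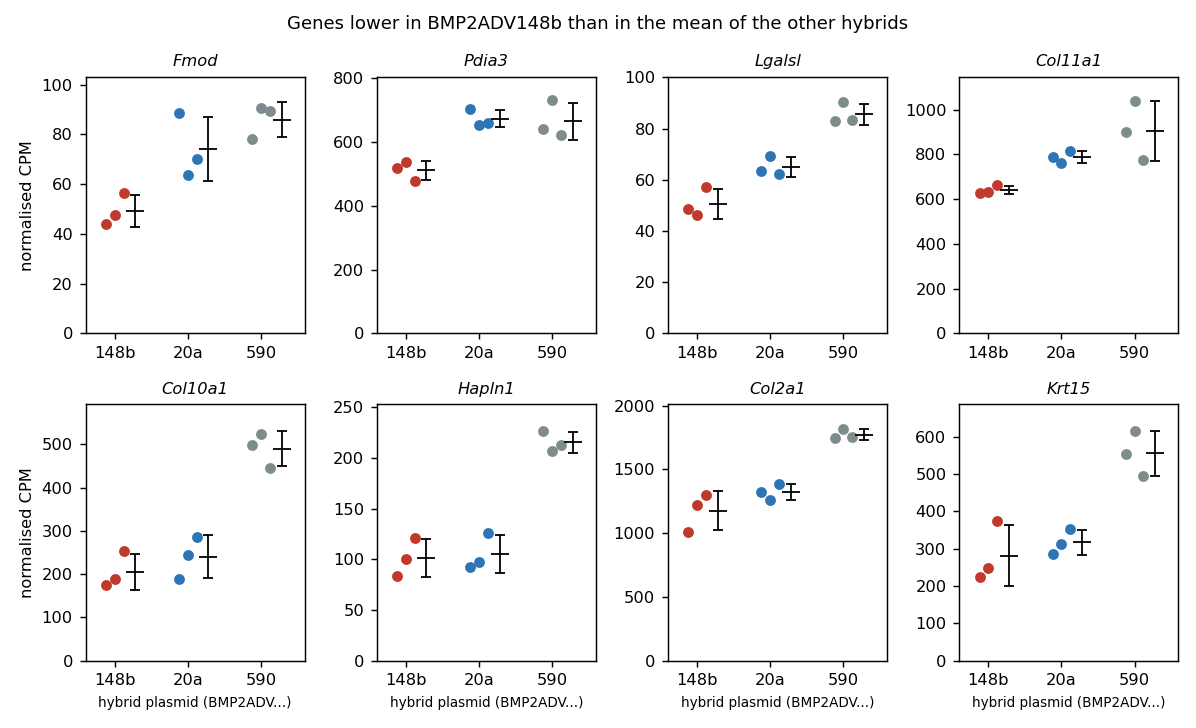
Normalised CPM of 8 genes called lower in BMP2ADV148b than in the mean of the other hybrids, by library, with BMP2ADV148b on the left, then BMP2ADV20a and BMP2ADV590, and with the mean ± SD of 3. For Fmod, Pdia3, Lgalsl and Col11a1 in the upper row the BMP2ADV148b libraries lie below all 6 others, whereas for Col10a1, Hapln1, Col2a1 and Krt15 in the lower row they lie among or near the BMP2ADV20a libraries and BMP2ADV590 is higher.

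Other lower genes stood below both other hybrids. Fmod (ENSMUSG00000041559, chromosome 1, 134037254 to 134048277), which encodes fibromodulin, a proteoglycan that binds collagen fibrils, had 44.0, 47.4 and 56.5 CPM in BMP2ADV148b, 88.6, 63.6 and 70.0 CPM in BMP2ADV20a and 78.0, 90.7 and 89.2 CPM in BMP2ADV590. No BMP2ADV148b library reached the lowest of the others. The log2 fold change was -0.69 (SE 0.109, edgeR adjusted p = 0.000866), -0.59 against BMP2ADV20a (adjusted p = 0.0259) and -0.80 against BMP2ADV590 (adjusted p = 0.000519). Rapgef4, an exchange factor gene of cAMP signalling, had the largest fall among the named genes, at 4.47 ± 1.64 CPM in BMP2ADV148b, 8.05 ± 1.26 CPM in BMP2ADV20a and 11.7 ± 0.590 CPM in BMP2ADV590 (-1.12, adjusted p = 0.00851, and 0.116 without BMP2ADV148b replicate 1). Against BMP2ADV20a alone Rapgef4 was not called (-0.84, adjusted p = 0.243). The gene of the smooth muscle actin Actg2 was the 1 contractile gene called of 16 (-0.41, adjusted p = 0.0422, lost when any 1 of 6 libraries was left out, with adjusted p up to 0.174), at 45.3 ± 3.98 CPM in BMP2ADV148b against 65.2 ± 8.40 CPM in BMP2ADV20a, where its mean was highest. In BMP2ADV590 Actg2 averaged 55.2 ± 4.88 CPM, and it was not called against that plasmid alone (-0.28, adjusted p = 0.197). Other genes that the rule took were Map7d2 (-0.68), Susd5 (-0.67), the receptor adaptor gene Grb14 (-0.67), the kinase gene Dapk1 (-0.66), the adhesion gene Lims2 (-0.65), Cytl1 (-0.62), Lgalsl (-0.56), the exchange factor gene Dock9 (-0.50) and the tetraspanin gene Cd9 (-0.49). Of these 9, none had an adjusted p under 0.05 against BMP2ADV20a alone, and Lgalsl alone passed under every left-out library, while the other 8 were lost without BMP2ADV148b replicate 1, with adjusted p from 0.0626 upward. Most were lost without other libraries too. Dapk1 was lost when any 1 of 8 libraries was left out, Lims2 any 1 of 6, Dock9 any 1 of 5 and Cd9 any 1 of 3. For Map7d2 and Susd5 it was any 1 of 2. All 9 had the 3 BMP2ADV148b libraries below the other 6, which the rule required, against 2.51% of all tested genes. The BMP2ADV libraries were low as well for most of the 12 genes with the largest falls: in 11 of them the BMP2ADV mean lay below the means of BMP2ADV20a and BMP2ADV590, without a test. On the scaling of all 12 libraries Fmod averaged 49.4 ± 6.49 CPM in BMP2ADV148b and 49.1 ± 10.2 CPM in BMP2ADV, and Rapgef4 4.48 ± 1.64 CPM in BMP2ADV148b and 3.95 ± 0.796 CPM in BMP2ADV. Lgalsl was the exception, at 50.8 ± 5.92 CPM in BMP2ADV148b, 65.1 ± 4.04 CPM in BMP2ADV20a, 86.2 ± 4.73 CPM in BMP2ADV590 and 66.8 ± 3.10 CPM in BMP2ADV.

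Bone and BMP genes differed little. None of 13 osteoblast genes was called (median log2 fold change -0.16), with Runx2, the master factor of bone, at 42.0 ± 1.37 CPM in BMP2ADV148b, 50.5 ± 2.23 CPM in BMP2ADV20a and 42.0 ± 3.17 CPM in BMP2ADV590 (-0.13, edgeR adjusted p = 0.605). None of 11 adipocyte genes was called (median 0.07). Of 16 BMP-SMAD targets, Grem1, which encodes a secreted BMP antagonist, was lower, at 41.6 ± 1.31 CPM in BMP2ADV148b, 51.8 ± 3.37 CPM in BMP2ADV20a and 55.1 ± 2.49 CPM in BMP2ADV590 (-0.36, adjusted p = 0.0366). This call was lost when any 1 of 6 libraries was left out, with adjusted p up to 0.197. Id1 had -0.08 and Id3 0.02, and neither was called. None of 17 BMP pathway components was called. Bmp2 was scarce, at 5.34 ± 2.58 CPM in BMP2ADV148b, 3.39 ± 0.685 CPM in BMP2ADV20a and 5.01 ± 0.652 CPM in BMP2ADV590 (0.37, adjusted p = 0.659). These levels rest on 153 counts over the BMP2ADV148b libraries, 132 over BMP2ADV20a and 177 over BMP2ADV590. Whether these reads stem from the plasmid or from the cells' own gene cannot be told apart.

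Most remaining lists held few or no called genes. There were 2 lower members of 20 in the extracellular matrix list, Fmod and Col6a2 (-0.40, edgeR adjusted p = 0.0349, lost when any 1 of 6 libraries was left out). Of the 20, 19 had a negative log2 fold change, and the median was -0.18 (-0.22 to -0.11 with 1 library left out). In 6 of the 20 all 3 BMP2ADV148b libraries lay below all 6 others, against 2.51% of all tested genes. Against BMP2ADV590 alone 7 were lower, beside 2.3% of all genes, and against BMP2ADV20a alone 1, beside 0.0536%. There was 1 lower of 9 in the retinoic acid list, the retinaldehyde reductase gene Dhrs3 (-0.33, adjusted p = 0.0433, lost without any 1 of 8 libraries). There was 1 higher of 15 immediate early genes, the AP-1 subunit gene Fosl1 (0.61, adjusted p = 0.0317, lost without any 1 of 4 libraries). Of 14 matrix remodelling genes Mmp9, a gelatinase gene, was higher, from 54 counts over the BMP2ADV148b libraries against 2 over BMP2ADV20a and 9 over BMP2ADV590 (adjusted p = 0.00218). Its BMP2ADV148b levels were 3.37, 1.16 and 1.05 CPM, so replicate 1 carried most of the counts, and without it the adjusted p was 0.129. No member was called of 20 mitosis genes (median 0.10), 20 DNA replication genes (0.19), 20 cholesterol synthesis genes (-0.01), 18 hypoxia and glycolysis genes (-0.11), 14 TGF-beta targets (-0.03), 15 vessel growth factor genes (-0.11), 8 Notch targets (-0.05), 8 Wnt targets (0.15), 16 lysosome genes (-0.05) or 12 miRNA processing genes (-0.02), the Argonaute gene Ago2 among them (-0.04, adjusted p = 0.891). The medians of the Wnt and Notch targets moved with single libraries: that of the Wnt targets was -0.16 without BMP2ADV148b replicate 2, and that of the Notch targets -0.18 without replicate 3. With 1 library left out, the DNA replication median stayed between 0.14 and 0.20 and the mitosis median between 0.08 and 0.12. The 5 tested neural, 4 tested macrophage, 2 tested endothelial and 1 tested muscle markers held no called gene either.

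Candidate targets of miR-148b did not fall as a list. Of 26 tested members of the miR-148 family target list none was called, and the median log2 fold change was -0.02 (0.00 against BMP2ADV20a, -0.05 against BMP2ADV590). Dnmt1, the maintenance DNA methyltransferase gene and a known target of the family, averaged 66.3 ± 6.42 CPM in BMP2ADV148b, 68.7 ± 2.17 CPM in BMP2ADV20a and 60.5 ± 14.9 CPM in BMP2ADV590 (0.04, SE 0.116, edgeR adjusted p = 0.943). Nog, which encodes the BMP antagonist noggin, had 69 counts over the BMP2ADV148b libraries, 70 over BMP2ADV20a and 149 over BMP2ADV590 (-0.23, SE 0.427, adjusted p = 0.894). The spread of Nog was too wide for a difference of moderate size to be detectable at this depth. The 20 tested members with a TGCACTG site in the 3′ UTR had a median of -0.04 and the 6 without 1 a median of 0.02. Csf1, a macrophage growth factor gene with such a site, came nearest to the threshold of all members, on the higher side (0.40, adjusted p = 0.0756), and was higher against BMP2ADV590 alone (adjusted p = 0.00463). The list held 1 higher member under 7 of the alternatives. Prkaa1, a catalytic subunit gene of the energy sensor AMPK, was the site-bearing member nearest to the threshold on the lower side (-0.26, adjusted p = 0.171), with all 3 BMP2ADV148b libraries below the other 6. The sites of 3 list members are shown with the seed match in capitals, together with a following A where there is 1.
Dnmt1, chr9:20907481-20907508, minus strand: gagccccacgTGCACTGAtgtttttaac
Nog, chr11:89301142-89301168, minus strand: gttcctgtaaTGCACTGtttaactgtg
Prkaa1, chr15:5180642-5180669, plus strand: ctatagtttaTGCACTGAtttccggaca

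Across all genes, a lower shift went with the site followed by A, and it was small. The longest annotated 3′ UTR was searched for 11493 tested genes, of which 132 were called higher (1.15%) and 83 lower (0.722%). TGCACTG was present in 1813 of them, with 14 higher, 19 lower (1.05%) and a median log2 fold change of -0.02. It was followed by A in 504 genes, with 2 higher (0.397%), 11 lower (2.18%) and a median of -0.05, the same to 2 decimals against BMP2ADV20a and against BMP2ADV590. The calls were less even than the medians. Against BMP2ADV20a alone 2 of the 504 were lower (0.397%), beside 0.0609% of all 11493 genes. Against BMP2ADV590 alone 22 were lower (4.37%), beside 2.53%. Genes without the site numbered 9680, with 118 higher (1.22%), 64 lower (0.661%) and a median of 0.00. Genes with a miR-20a-5p site had 9 lower of 1731 (0.520%) and a median of 0.00. That set is not neutral, since BMP2ADV20a was built to express miR-20a. Genes with a miR-148b-5p site numbered 1807, with 18 higher (0.996%), 7 lower (0.387%) and a median of 0.00. Their median UTR length was 2546 bases. The median UTR length was 2387 bases for the TGCACTGA genes, 2558 bases for the genes with a miR-20a-5p site and 1049 bases for the genes without TGCACTG. Without BMP2ADV148b replicate 1 the lower genes numbered 2 with TGCACTGA, 5 with TGCACTG, 1 with a miR-20a-5p site and 3 without TGCACTG. The count of 11 was 3 without replicate 2, and leaving out other libraries gave 7 to 14, while the median of the TGCACTGA genes stayed between -0.05 and -0.04. No test was run on these sets.

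**Figure D4:**
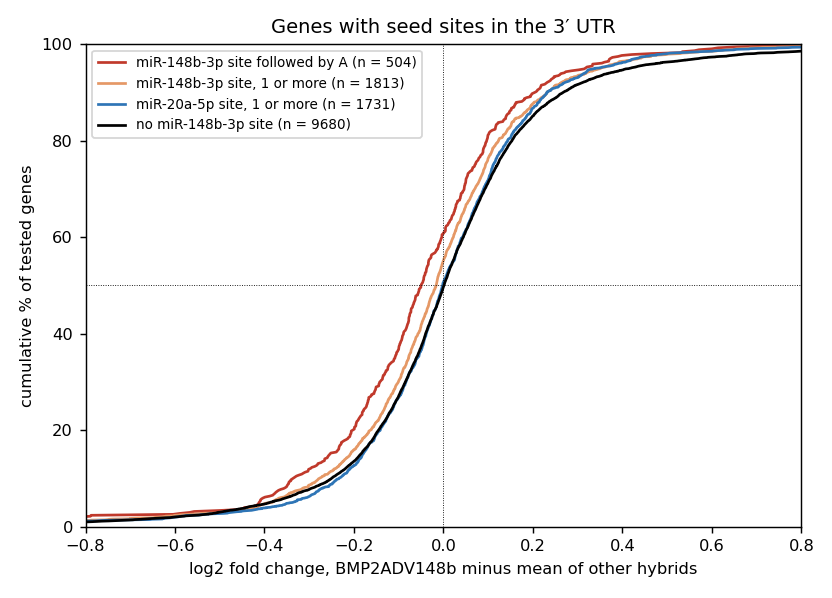
Cumulative percent of tested genes by log2 fold change, BMP2ADV148b minus the mean of BMP2ADV20a and BMP2ADV590, for genes grouped by seed sites in the 3′ UTR. The curve of 504 genes with a miR-148b-3p site followed by A lies left of the other curves over most of the range, with a median of -0.05, and the curve of 1731 genes with a miR-20a-5p site lies close to that of the 9680 genes without a miR-148b-3p site.

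The 11 lower genes with TGCACTGA were picked by their values and are given as a description. Lgalsl, a galectin-like gene, had 48.6, 46.2 and 57.3 CPM in BMP2ADV148b, 63.5, 69.5 and 62.2 CPM in BMP2ADV20a and 82.9, 90.4 and 83.4 CPM in BMP2ADV590. BMP2ADV148b lay below both groups, with BMP2ADV590 the highest (-0.56, SE 0.0888, edgeR adjusted p = 0.00104). Nptn, which encodes the adhesion protein neuroplastin, had 241, 240 and 238 CPM in BMP2ADV148b, 318, 305 and 278 CPM in BMP2ADV20a and 301, 311 and 318 CPM in BMP2ADV590 (-0.35, SE 0.0655, adjusted p = 0.005). Its fold changes against BMP2ADV20a and BMP2ADV590 were alike, at -0.33 and -0.37. Mgat5, a gene of N-glycan branching, averaged 29.0 ± 1.53 CPM in BMP2ADV148b, 39.2 ± 1.54 CPM in BMP2ADV20a and 37.7 ± 1.58 CPM in BMP2ADV590 (-0.41, adjusted p = 0.028). The others were the small GTPase gene Mras (-0.39), the nucleotide sugar transporter gene Slc35d1 (-0.40), the autophagy gene Atg12 (-0.41), the receptor gene Erbb3 (-0.89), the copper transporter gene Atp7a (-0.45), Pofut1 (-0.42), whose enzyme puts fucose on Notch, the protease gene Adam10 (-0.29) and Col2a1. Apart from Erbb3 and Col2a1, the 3 BMP2ADV148b libraries of each of the 11 lay below all 6 others. Lgalsl and Nptn passed under every left-out library, while each of the other 9 was lost without at least BMP2ADV148b replicate 1. Sites of 5 of the 11 are shown, from the GRCm38 sequence of the 3′ UTR, with the seed match and the following A in capitals.
Lgalsl, chr11:20825976-20826003, minus strand: acatcaaatcTGCACTGAcgtggaattg
Nptn, chr9:58652557-58652584, plus strand: tgaaatctttTGCACTGAtgtgtcaaac
Mras, chr9:99388322-99388349, minus strand: actgcctaacTGCACTGAgaaccacttc
Mgat5, chr1:127486348-127486375, plus strand: tgagttgggtTGCACTGAagctatgtgt
Col2a1, chr15:97975941-97975968, minus strand: ctccaggatcTGCACTGAatggctgacc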

How the data were processed

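RNA of 9 libraries was analysed, 3 in each of 3 groups given by the titles. Per the labels' protocols, cells were transfected with TurboFect, and QuantSeq 3′ mRNA FWD libraries, which read mainly the 3′ ends of polyadenylated transcripts, were made from total RNA. Per the submitters' processing notes, FastQC 0.11.5, STAR 2.5.2a and HTSeq 0.6.0 were used with GRCm38. The deposited values are counts of reads per gene, not normalised. The sources used here do not name the strand setting, counting mode or annotation release. Reads of overlapping or antisense genes can therefore not be told apart, and close gene copies are measured only by reads that distinguish them. Records that name no gene, mainly reads with several alignments, made up 52.2% to 54.2% and were left out. Of 47643 genes, 47224 were given a symbol from GENCODE M21.

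From these counts, edgeR 4.0.16 in R 4.3.3 (TMM, filterByExpr, quasi-likelihood F-test, 1 mean per group, 9 libraries) was run on 13069 genes (common biological coefficient of variation 0.119). The contrast was BMP2ADV148b minus the mean of the other group means. P-values were adjusted by Benjamini-Hochberg over all 13069 genes and called at 0.05. Fold changes are log2, SE is that of the fit, and levels are given in normalised counts-per-million (CPM), with the SD over 3 libraries. Floors of 3 counts cover counting error only. Gene lists are described by counts and medians, without a set test. The members and lists were chosen with earlier results of these data known. Named genes were Mir148b, Copz1, Bmp2, Nog, Dnmt1, Mir17hg and Eif4h, then, of the called genes that reached 10 CPM in a group and whose libraries did not overlap, the 12 with the largest rise and the 12 with the largest fall, and, by smallest p, at most 4 called genes per list (33 lists). Further members of the interferon, MHC class I and NF-kB lists and genes without a call were added after their values were seen, to cover the roles in a list. Some genes that the rule took are not reported here. Seed sites (complement of bases 2 to 8) were searched in the longest annotated 3′ UTR. Simulated counts were used to test the edgeR steps. Alternatives were DESeq2, DESeq2 size factors, limma-voom, no filter, all 12 libraries, the 6 others as 1 group, a replicate block, leaving out Gm42418 and mitochondrial transcripts, an adjusted p of 0.10, and each library left out.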

Additional observations from a re-analysis of the deposited data

How the results depend on the processing

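The average comparison called 223 genes. It called 382 with no filter on low counts and 98 with the 6 other libraries as 1 group, which adds the difference between BMP2ADV20a and BMP2ADV590 to the spread. DESeq2 called 324, limma-voom 199, DESeq2 size factors in edgeR 222, all 12 libraries in the fit 240, an adjusted p under 0.10 325, and the counts without Gm42418 and mitochondrial transcripts 223. With 1 library left out the count ran between 70 and 286. Against BMP2ADV20a alone 68 genes were called, 137 with no filter and 13 to 96 with 1 library left out, the lowest without BMP2ADV20a replicate 1. It was 30 without BMP2ADV20a replicate 3, and 17 and 31 without BMP2ADV148b replicate 1 and 2. Against BMP2ADV590 alone 563 were called, 876 at an adjusted p under 0.10 and 219 to 642 with 1 library left out, of which 219 and 305 without BMP2ADV148b replicate 1 and 2 and 352 without BMP2ADV590 replicate 3. The cause of these moves was not tested.

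Same-numbered libraries shared only a number: the correlations of their deviations from the group means lay between -0.0996 and 0.0739 over 9 pairs. A replicate block gave 195, 55 and 475 called genes for the 3 comparisons in that order. Of 45 called genes that the rule named, 20 kept their call under all 18 alternatives, 24 lost it with at least 1 library left out, and none changed sign. The higher interferon members numbered 17 to 31 with 1 library left out, and 24 with the 6 libraries as 1 group. At 9236431 to 14727288 counts per library, genes with few counts such as Nog and Bmp2 allow no statement on moderate differences.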
